A study of Caenorhabditis elegans with 4 samples.

Results

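The X chromosome peaks of MAB-5 are the genomic intervals on chromosome X (WormBase build WS220) that were listed as bound in a chromatin immunoprecipitation and sequencing (ChIP-seq) study of Caenorhabditis elegans embryos. They were taken as every interval whose chromosome is X in any of the 3 deposited peak lists, and an interval with identical ends within a list was counted once. The combined list held 114 X intervals of 642, the replicate 1 list 5435 of 29995 and the replicate 2 list 5273 of 29995, and no X interval was listed more than once. Both ChIP replicates came from embryos of the strain OP27, a mixed population of males and hermaphrodites raised at 20 °C, with the unc-119(ed3) mutation and the integrated transgene wgIs27. The transgene, introduced by bombardment, carries mab-5 fused to the TY1, EGFP and FLAG tags and a copy of unc-119 (written mab-5::TY1 EGFP FLAG in the labels), and all samples carry both the mutation and the transgene. Chromatin was fixed with 2% formaldehyde and precipitated with antibodies against GFP, and 2 input samples are not analysed here. The profiles therefore describe a tagged protein made from a transgene in whole embryos, and the share of males is not given. The labels do not say whether the replicates came from separate cultures. Peaks are not independent replicates, so the intervals and p-values given here measure counting error over peaks only, and the read depth behind a peak is unknown.

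MAB-5 is a homeodomain transcription factor of the Hox family. Hox proteins give cells an identity along the body axis, and mab-5 is known for its part in the posterior body, including the migration of a neuroblast, male tail development and the muscle lineage. The X chromosome is the sex chromosome of the worm, present as a pair in hermaphrodites and singly in males. In hermaphrodites its transcription is lowered by the dosage compensation complex, which spreads along the chromosome from recruitment sites. The question taken up here, within the study's aim of finding the regions that MAB-5::GFP binds in embryos, is how the X peaks are arranged, how well both replicates list them and whether they differ from the peaks of autosomes II, III, IV and V pooled.

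The strongest X regions were listed near the top by both replicates. Each deposited list numbers its peaks. The peaks at the top score come first, and below them the number follows the score only roughly. The peak number, and not the score, is the rank given here for each region, so the order among peaks tied at the top score is the authors' own. The highest ranked X region lay at 8036187 to 8036566 and was numbered 3 in the combined list, 9 in replicate 1 and 11 in replicate 2. The region at 11093911 to 11094298 was combined peak 5, with number 20 in replicate 1 and number 9 in replicate 2. The region at 14525621 to 14525934 was combined peak 10, with numbers 39 and 14 in replicates 1 and 2. These first X regions were thus within the first 50 peaks of each replicate. They were picked by their number in the combined list, which was drawn from these replicates. High rank in both is therefore partly set by that choice and is no independent check.

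The next X regions followed closely in the combined list. Combined peak 11 (9465657 to 9465937) had number 41 in replicate 1 and number 21 in replicate 2. Combined peak 12 (2996890 to 2997279) was peak 29 and peak 17 in replicates 1 and 2, and combined peak 13 (13700640 to 13700930) was peak 37 and peak 13. Combined peak 14 (806554 to 806832) was peak 24 of each replicate. These 4 regions lay in different parts of the chromosome, from the left end to the right part.

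The remaining regions of the first 10 showed a wider spread of ranks. Combined peak 17 (11937357 to 11937559) had numbers 17 and 33 in replicates 1 and 2, combined peak 23 (16681917 to 16682185) numbers 85 and 20, and combined peak 25 (2046173 to 2046414) number 43 in each. All 10 carried the top score of each of the 3 lists. In each of them the midpoints of the replicate 1 and replicate 2 intervals lay between 3.0 and 48.0 bp apart. Of the first 25 combined peaks 10 were on X (40%, 95% exact interval 21.1 to 61.3%). Of the first 100, 20 were on X, and of all 642, 114 (17.8%). X held 3 of the first 10 and 15 of the first 50 (30% each). It held 32 of the first 200 and 52 of the first 321 (16.2%), both shares below that of the whole list. The first 25 gave the highest X share of these cutoffs, so the interval there cannot serve as a test. These counts by rank were read after the values were seen and were not tested.

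The first 10 X regions also had narrow intervals, between 203 and 390 bp wide. Most X intervals of the combined list (98 of 114) were 540 bp wide, 16 were narrower and none was wider. Of the 16 narrow ones 15 had the top score, and the narrowest measured 138 bp (8036442 to 8036579, combined peak 225). The narrow share was 14.0% on X (95% exact interval 8.24 to 21.8%) and 12.1% on autosomes II to V (9.09 to 15.7%), with 11.8% over the whole combined list. Of the 49 narrow autosomal intervals 48 had the top score, so nearly all narrow intervals had the top score on the autosomes too. The X intervals of the combined list together covered 56.7 kb.

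X carried about as many combined peaks as its length predicts. Each chromosome was measured up to the last peak that any replicate listed on it, which gave 17.7 Mb for X and 67.5 Mb for autosomes II to V. The 114 combined X peaks amounted to 6.43 per Mb (95% exact Poisson interval 5.31 to 7.73), and the 405 peaks of II to V to 6.0 per Mb (5.43 to 6.62). Given 519 peaks on these 5 chromosomes, 107.9 were expected on X, and the ratio of 1.06 (95% exact interval 0.888 to 1.24) did not differ from 1 (two-sided exact binomial test, adjusted p = 0.645 by Benjamini-Hochberg over the 5 tests of X against the autosomes). Between the single autosomes the density ranged from 4.01 per Mb on V to 8.71 per Mb on III, and X lay inside this range. Against II, IV and V without III, which was added after the data were seen, the ratio was 1.15 (exact binomial adjusted p = 0.231). This setting leaves out the densest of these autosomes and so raises the ratio, and the sparsest, V, was not left out in turn. Against autosomes I to V, a planned setting, the ratio was 1.005 (exact binomial adjusted p = 0.959).

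The replicates placed unequal numbers of strong peaks on X. At equal list length, the 642 highest scoring nuclear peaks of each replicate, X held 120 peaks in replicate 1 (18.7%, 95% exact interval 15.7 to 21.9%) and 96 in replicate 2 (15.0%, 12.3 to 18%). These intervals overlap, and with 1 list per replicate the difference has no test. Autosomes II to V held 405 and 411. The X peaks per Mb were 6.77 in replicate 1 and 5.42 in replicate 2, on either side of the 6.43 of the combined list, and the ratio to expectation went from 1.10 to 0.910. Over the whole lists, weak peaks included, X held 18.1% of the nuclear peaks of replicate 1 and 17.6% of replicate 2, close to its 17.7% share of the length.

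Combined X peaks were spread over the whole chromosome, from 353103 to 17506067. X was cut into 3 segments of equal length, and by interval midpoint the left segment held 39 (34.2%, 95% exact interval 25.6 to 43.7%), the central segment 33 (28.9%, 20.8 to 38.2%) and the right segment 42 (36.8%, 28.0 to 46.4%). The boundaries lay at 5.91 and 11.8 Mb. The outer segments did not differ from each other, with 39 of 81 peaks on the left (48.1%, interval 36.9 to 59.5%, two-sided exact binomial test, p = 0.824).

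The central segment of X held a lower share of peaks than that of the autosomes, but the difference did not pass the test. It held 33 of 114 X peaks against 158 of 405 on II to V (39.0%, 34.2 to 44.0%), with 37.7% over all 642 combined peaks. The difference was -10.1 percentage points (95% Newcombe interval -19.0 to -0.0316, two-sided Fisher's exact test p = 0.0613, adjusted p = 0.307). The interval of the difference just leaves out 0 while the exact test misses 0.05, so the result lies at the edge of the threshold before adjustment. The autosomes themselves were unequal, with central shares of 41.9% on II, 40.8% on III, 25.9% on IV and 50.0% on V, so that X lay between IV and the others. Without V, a setting added after the data were seen, the pooled autosomal share was 36.1% and the difference -7.19 points (Fisher's exact adjusted p = 0.645).

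**Figure D1:**
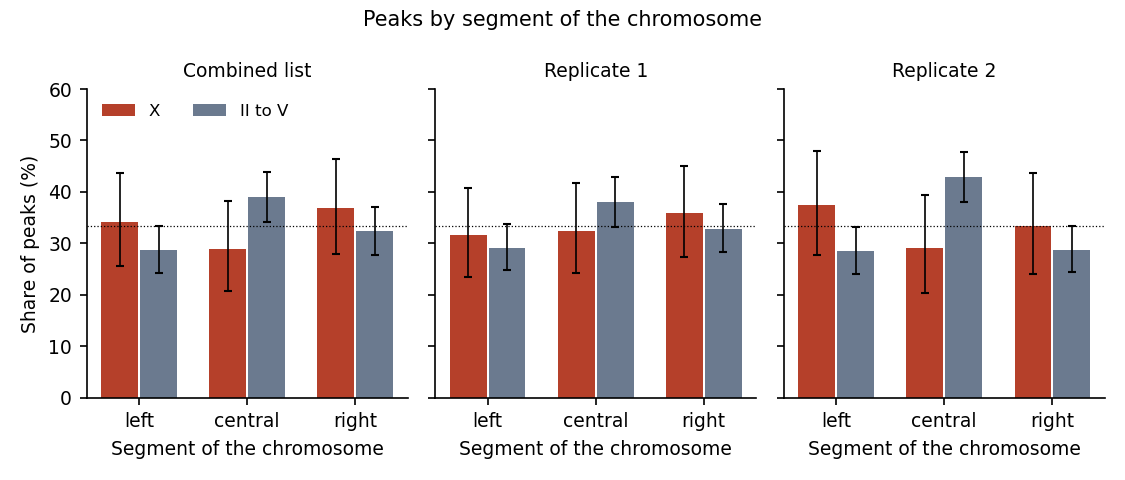
Share of peaks (percent of the peaks of X, red, or of autosomes II to V pooled, grey) in the left, central and right segment of the chromosome, each a stretch of equal length, by interval midpoint, for the combined list and the 642 highest scoring peaks of each replicate. Bars start at 0, error bars are 95% exact intervals and the dotted line marks 33.3%. In the combined list the central bar is 28.9% for X and 39.0% for II to V, and the intervals overlap.

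A lower central share on X than on II to V pooled was seen in each replicate at equal list length, with unequal size. The place of X among the single autosomes was not the same. In replicate 1 X lay between IV (30.0%) and the others, and in replicate 2 it lay below IV (36.6%) and each of the others. In replicate 1 the central segment held 39 of 120 X peaks (32.5%) and 38.0% of those on II to V, a difference of -5.52 points (interval -14.6 to 4.41). In replicate 2 it held 28 of 96 X peaks (29.2%) and 42.8% of those on II to V, a difference of -13.7 points (interval -23.1 to -2.83, Fisher's exact adjusted p = 0.0758). In the whole replicate lists the central segment held 32.9% and 32.3% of the X peaks, and 32.7% and 31.3% of those on II to V, for replicates 1 and 2. Over the whole lists each segment of X held between 32.3 and 34.1% of its peaks. Single autosomes were less even there, with a central share of 28.7% on III in replicate 2.

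No stretch of 1 Mb on X was without a combined peak. The 17 full bins held between 2 and 11 combined peaks (median 7.0), and the incomplete last bin held 5. The densest bin was the second, from 1 to 2 Mb, with 11 peaks, followed by the bin from 14 to 15 Mb with 10. The bin from 7 to 8 Mb had the fewest, with 2 combined peaks, 3 in replicate 1 and 1 in replicate 2. The variance of the counts over their mean, which is near 1 for independently placed peaks, was 1.07 on X and 1.81 over the 65 full bins of II to V. Pooling chromosomes of unequal density raises the latter value, and the single autosomes gave 0.882 on II, 1.62 on III, 1.62 on IV and 1.39 on V. In the combined list X was thus lower than III, IV and V and above II. This order did not hold at equal list length in either replicate. In replicate 1 the ratio was 1.28 on X and 1.21 on IV, and in replicate 2 it was 0.918 on X, 0.965 on II and 0.849 on IV. No test was made of these ratios.

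The bin with the most peaks was not the one with the most strong peaks. Of the 11 peaks in the densest bin 2 had the top score, while all 4 combined peaks between 11 and 12 Mb had it. The bin from 14 to 15 Mb held the most top-score peaks, 5 of 10.

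**Figure D2:**
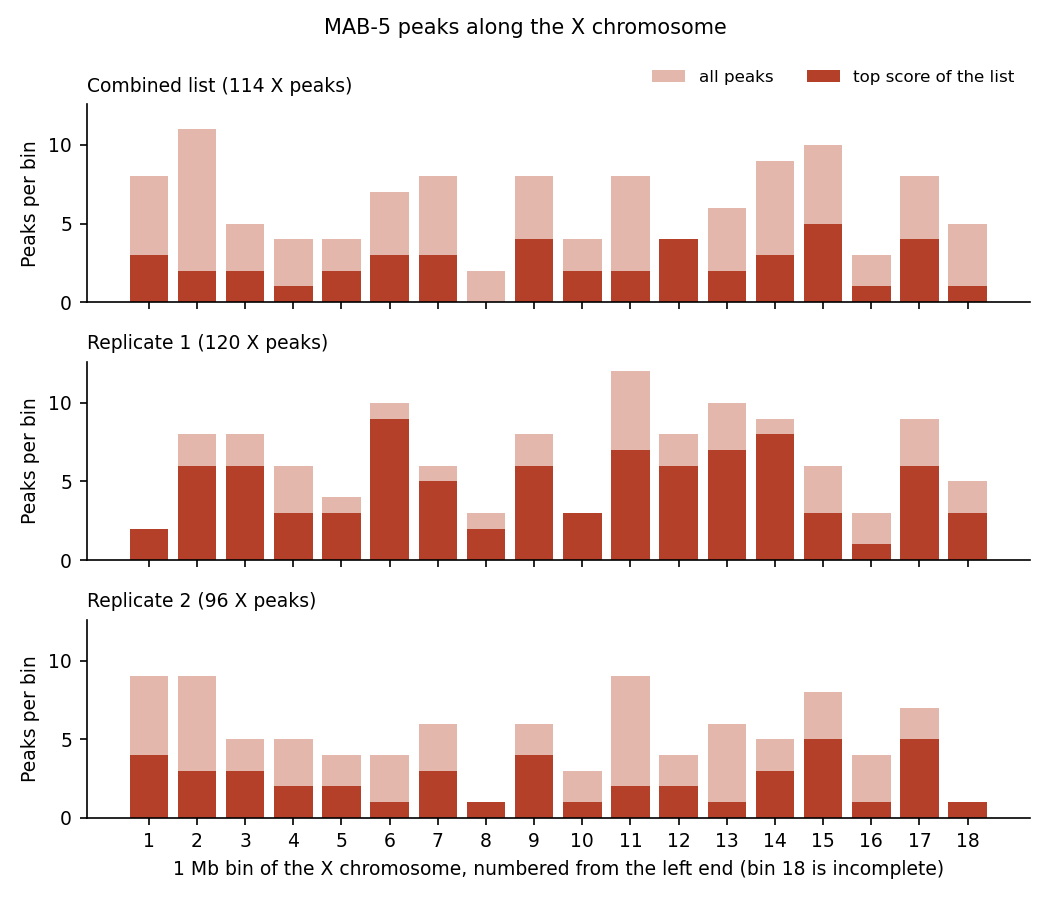
Number of X peaks in each 1 Mb bin, numbered from the left end of the chromosome, for the combined list (114 peaks) and the 642 highest scoring peaks of replicates 1 and 2 (120 and 96 X peaks), with peaks at the top score of the list in dark red. Bin 1 holds 2 peaks in replicate 1 and 9 in replicate 2, and bin 6 holds 10 and 4.

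The largest difference between replicates in a bin was at the left end of X. The first bin held 2 peaks of replicate 1 and 9 of replicate 2 at equal list length, and 8 combined peaks. Of these 8 combined peaks 6 were among the first 642 of replicate 2 alone, 2 were among those of both replicates and 0 were in replicate 1 alone. The whole lists gave nearly equal numbers there, 243 and 249 peaks. The reverse was seen from 5 to 6 Mb, where replicate 1 held 10 strong peaks and replicate 2 held 4, and where 5 of 7 combined peaks were among the first 642 of replicate 1 alone. These bins were picked for their difference, which has no test. Across the 17 full bins the replicate counts had a Spearman's rho of 0.32 and a Pearson's r of 0.35, as a description of bins that share 1 chromosome.

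Both replicates shared X peaks about as often as autosomal ones. Among the 120 X peaks in the first 642 of replicate 1, 44 overlapped one of the first 642 of replicate 2 by at least 1 bp (36.7%, 95% exact interval 28.1 to 45.9%). On II to V the share was 156 of 405 (38.5%, 33.8 to 43.5%), and over all 642 peaks 39.1%. The difference of -1.85 percentage points (interval -11.3 to 8.18) did not pass (Fisher's exact adjusted p = 0.749). Counted from replicate 2, where X has fewer peaks in the list, 44 of 96 X peaks (45.8%) and 38.7% of those on II to V had a partner, a difference of 7.15 points (interval -3.60 to 18.1, Fisher's exact adjusted p = 0.475). The sign of the difference thus depends on which replicate is the base.

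Sharing on X fell as weaker peaks were taken in, and rose again near the full length of the lists. Of the 100 highest peaks of replicate 1, 20 were on X and 13 of these had a replicate 2 partner (65.0%, 95% exact interval 40.8 to 84.6%), against 30 of 64 on II to V (46.9%). The X share was 46.0% among the 321 highest (46.6% on II to V), 30.4% among 1000 (36.9%) and 26.0% among 10000 (27.6%). At 1000 peaks the difference was -6.53 points (Fisher's exact adjusted p = 0.253). Over all 29973 nuclear peaks it was 39.1% on X and 40.5% on II to V. The longer lists cover more of the genome, so that overlap by position alone also grows with list length.

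**Figure D3:**
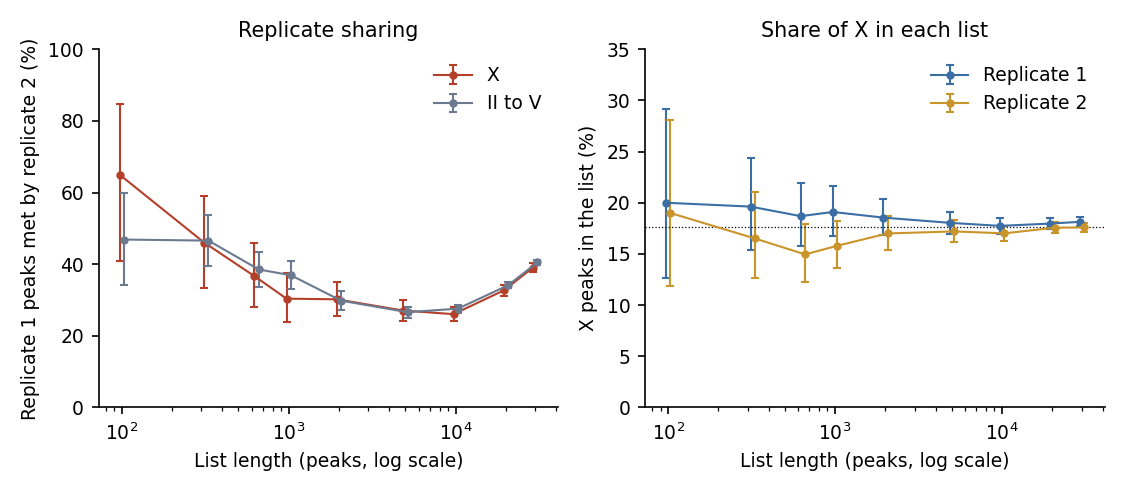
Left, share of replicate 1 peaks that overlap a replicate 2 peak (percent) against the length of both lists (log scale), for X (red) and autosomes II to V (grey). Right, share of X among the listed peaks (percent) for each replicate, with the share of X in the nuclear length (17.7%) dotted. Error bars are 95% exact intervals and points are shifted slightly sideways. At 642 peaks the left panel shows 36.7% for X and 38.5% for II to V, and the right panel 18.7% and 15.0%.

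The combined list took up nearly all X peaks that both replicates listed high, and many that a single replicate did. Of the 44 strong X peaks of replicate 1 with a strong replicate 2 partner, 43 overlapped a combined peak. The exception was at 3116074 to 3116537 (peak 552 of replicate 1), whose partner at 3116448 to 3116937 (peak 644 of replicate 2) overlapped it at the edge. Of all 120 strong X peaks of replicate 1, 72 had a combined peak (60%, 95% exact interval 50.7 to 68.8%), and of the 96 of replicate 2, 75 had one (78.1%, 68.5 to 85.9%). The same shares on II to V were 56.3% and 70.1%. Of the replicate 1 X peaks at the top score 63 of 86 had a combined peak, and of those of replicate 2, 42 of 44. These top-score counts and the 43 of 44 are given for X only, so they show no trait particular to X. The combined list was drawn from the same replicates, and the counts describe how it was made up.

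Some strong X peaks of a single replicate had no combined peak. The first of replicate 1 were peak 199 (13120652 to 13121115), peak 229 (2809584 to 2810047) and peak 243 (10130018 to 10130481), all at the top score of that list. Their partners in replicate 2 were peaks 10998, 2996 and 24232. The first of replicate 2 were peak 199 (2242741 to 2243230), peak 261 (16534449 to 16534938) and peak 323 (13533035 to 13533524), with replicate 1 partners at peaks 18165, 4847 and 12939. Each of these 6 regions was thus listed far down by the other replicate. Of the strong X peaks, 16 of 120 in replicate 1 (13.3%) and 9 of 96 in replicate 2 (9.38%) overlapped nothing at all in the opposite list. On II to V the shares were 13.3% and 9.73%, and over all 642 peaks 13.2% and 10.7%.

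Read from the combined list, 43 of the 114 X regions were among the first 642 peaks of both replicates (37.7%, 95% exact interval 28.8 to 47.3%), against 39.5% on II to V and 39.1% over all combined peaks. Another 29 were in those of replicate 1 alone (25.4%, 17.7 to 34.4%), 31 in those of replicate 2 alone (27.2%, 19.3 to 36.3%) and 11 in neither. On II to V, replicate 1 alone gave 18.3% (14.6 to 22.4%) and replicate 2 alone 31.9% (27.3 to 36.6%). On X the counts from each replicate alone were thus about equal, whereas on II to V pooled more regions came from replicate 2 alone. The strong peaks to draw from were 120 and 96 on X in replicates 1 and 2, and 405 and 411 on II to V. Of these, a larger share had a combined peak in replicate 2 on X (78.1% against 60%) and on II to V (70.1% against 56.3%). The equal X counts are therefore no sign that the list drew differently on the replicates there. Differences between X and II to V were not tested, and none of these shares is given for single autosomes. The combined list was drawn from these replicates, so the counts describe how it was made up and are no independent check.

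The top score of the combined list went mostly with high rank in both replicates. It was carried by 44 of 114 X peaks (38.6%, 95% exact interval 29.6 to 48.2%) and 181 of 405 on II to V (44.7%, 39.8 to 49.7%), with 42.1% over the whole list. The difference of -6.09 percentage points (interval -15.8 to 4.24) did not pass (Fisher's exact adjusted p = 0.645). Of the 44 X peaks 34 were among the first 642 of both replicates, 8 in replicate 2 alone and 2 in replicate 1 alone. Of the 181 on II to V, 134 were in both, 33 in replicate 2 alone and 14 in replicate 1 alone. The combined list was drawn from these replicates, so this is no independent check. The first 100 combined peaks by number took 17.5% of the X peaks and 15.8% of those on II to V, a difference of the other sign (1.74 points).

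Every combined X region had a partner in each whole replicate list, often at an unequal rank. The same held for 403 of 405 regions on II to V, so it is no trait particular to X. The whole lists covered 2340 and 2389 kb of the 17.7 Mb of X, so a partner far down a list can overlap by position alone. The median partner was at peak number 389.5 in replicate 1 (quartiles 154 and 1103) and 398 in replicate 2 (quartiles 155.75 and 1129.25). On II to V the medians were 484 and 346. The peak number was lower in replicate 1 for 54 X regions and lower in replicate 2 for 58, against 165 and 236 on II to V. Chromosome III was nearly as even as X, with 54 and 63 regions and medians of 351 and 345. The counts were 34 and 59 on II, 44 and 64 on IV and 33 and 50 on V. Spearman's rho of the peak numbers was 0.22 over the 114 X regions and 0.18 over 403 regions on II to V, as a description of regions chosen from both lists. The numbers differed by more than 10-fold in 26 X regions (22.8%), and in 22.3% of those on II to V. Of these 26, 15 stood far lower in replicate 1 and 11 far lower in replicate 2.

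The widest gaps in rank were found on either side. The region at 3689388 to 3689927 (combined peak 319) had number 24479 in replicate 1 and 76 in replicate 2, and that at 949435 to 949974 (combined peak 464) had 16415 and 164. In the other direction, the region at 6091895 to 6092434 (combined peak 636) had number 153 in replicate 1 and 8514 in replicate 2, and that at 8723753 to 8724292 (combined peak 644, the last of the list) had 232 and 12702. Each of these 4 regions had the top score in a single replicate. For the former pair the replicate 1 scores were 0.0771 and 0.160, and for the latter pair the replicate 2 scores were 0.184 and 0.126, where the top scores are 2.98 in replicate 1 and 2.74 in replicate 2.

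**Figure D4:**
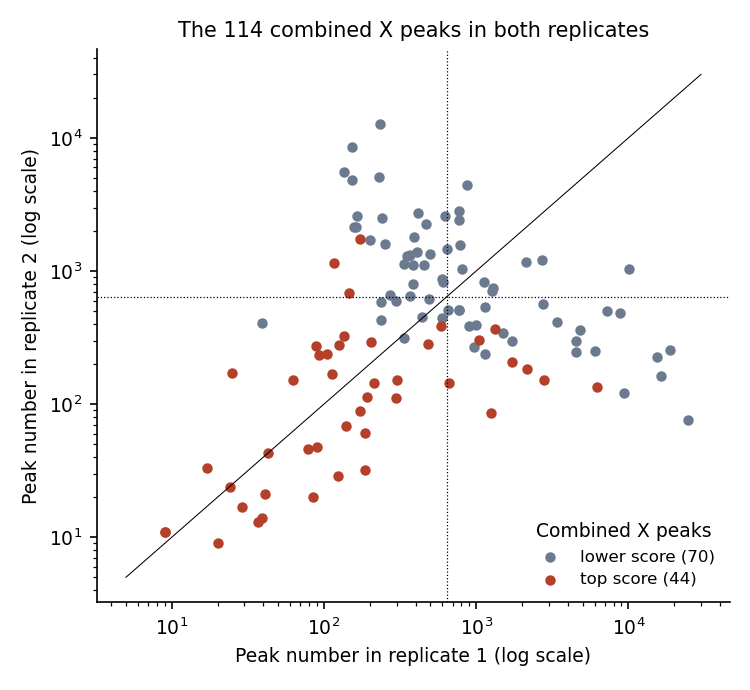
Peak number of each of the 114 combined X regions in replicate 1 (horizontal, log scale) and replicate 2 (vertical, log scale), with the 44 regions at the top combined score in red and the other 70 in grey. Dotted lines mark peak 642 of each list and the diagonal marks equal numbers. Of the 44 regions in red 34 were among the 642 highest scoring nuclear peaks of both replicates, and grey points reach out to peaks 24479 and 12702.

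Where both replicates listed a region, they placed it at nearly the same position. The midpoints of the partners were a median of 55.0 bp apart on X (quartiles 18 and 107.75) and 41.0 bp on II to V (quartiles 19.0 and 89.0). On X 84 of 114 regions (73.7%) had partners within 100 bp, against 78.2% on II to V. The distance is limited by the overlap that defines a partner, and the largest on X was 499 bp.

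The share of X peaks with a close neighbour did not differ detectably from that on II to V. Another combined peak lay within 5 kb, midpoint to midpoint, for 16 of 114 X peaks (14.0%, 95% exact interval 8.24 to 21.8%) and for 70 of 405 on II to V (17.3%, 13.7 to 21.3%), with 15.9% over the whole list. The difference of -3.25 percentage points (interval -9.81 to 5.02) did not pass (Fisher's exact adjusted p = 0.645). The autosomes ranged from 2 of 84 peaks on V (2.38%) to 31 of 120 on III (25.8%), the chromosome of mab-5 and other Hox genes. Without III, a choice made after the data were seen, the autosomal share was 13.7% and the difference 0.351 points. Without V, also chosen then, the autosomal share was 21.2% and the difference -7.15 points (Fisher's exact adjusted p = 0.320). The median distance to the nearest combined peak was 40.2 kb on X and 49.3 kb on II to V. Single autosomes gave medians of 45.8 kb on II, 24.3 kb on III, 55.9 kb on IV and 91.9 kb on V, and X lay inside this range. In replicate 1 at equal list length the medians on X and on II to V pooled were 42.5 and 55.3 kb. The order was the other way in replicate 2, with 62.4 kb on X and 38.3 kb on II to V. Among combined peaks, 35 on X (30.7%) and 115 on II to V (28.4%) had none within 100 kb.

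The 16 close X peaks formed 8 pairs. In 3 pairs the intervals overlapped each other, among them those of the strongest X region, where combined peak 225 (8036442 to 8036579) shared 125 bp with combined peak 3. Combined peaks 10 and 518 (14525916 to 14526063) overlapped by 19 bp at another of the first X regions, and combined peaks 314 and 445 by 272 bp at 1103577 to 1104384. Both members had the top score in 2 of the 8 pairs, the one at 8036187 and the one formed by combined peaks 141 and 43 (6292015 to 6292554 and 6296316 to 6296855). Counted as 1 where they overlap, the 114 intervals form 111 separate X regions.

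**Figure D5:**
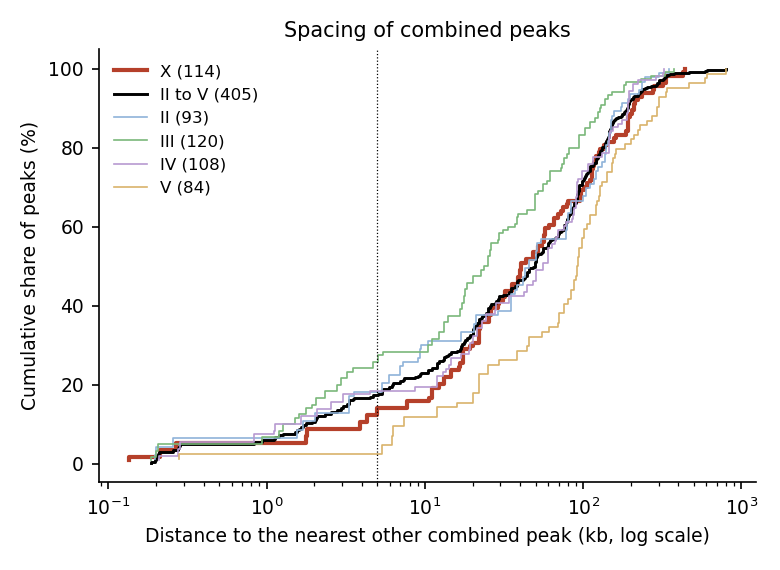
Cumulative share of combined peaks (percent) against the distance from each midpoint to the nearest other midpoint (kb, log scale), for X (red), II to V pooled (black) and each autosome (thin lines), with the number of peaks in brackets. The dotted line marks 5 kb, where X has reached 14.0%, III 25.8% and V 2.38%.

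The densest X windows were near the left end. In windows of 40 kb the highest number of combined X peaks was 5, reached from 1081918 to 1120851 and from 1093024 to 1122646, which share 4 peaks. Overlapping peaks counted once, each held 4 regions. At most 1 of the 5 peaks in such a window had the top score (combined peak 138, 1122107 to 1122646). Replicate 2 at equal list length had its densest X windows, with 4 peaks each, at the same places. Replicate 1 had its densest, also with 4 peaks, from 12158493 to 12184807 and from 12660582 to 12690595. The densest windows therefore lay in different parts of X in each replicate.

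Long stretches without combined peaks lay between these regions. The longest was 629 kb, from 8836393 to 9465657, and ended at combined peak 11. It held 1 of the strong peaks of replicate 1 and 0 of those of replicate 2, but 181 and 147 peaks of the whole lists. The next, of 522 kb from 6371628 to 6893993, held 2 and 0 strong peaks. The median gap between neighbouring combined X peaks was 113 kb. The longest stretch thus held weak calls of both replicates and was not blank in the lists.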

How the data were processed

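ChIP-seq peak lists of 2 ChIP replicates and 1 combined list were used, grouped by sample titles. Per the file headers coordinates are those of WormBase WS220, and the deposited source column names SPP via IDR, a peak caller and the irreproducible discovery rate. Which aligner, versions and thresholds were used, and how both replicates were combined, is not given in the sources used here. The authors deposited 1 score per peak in an unnamed unit, used only to rank peaks within a list, with ties ordered by the deposited peak number.

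All comparisons used scipy 1.17.1, pandas 2.3.3 and numpy 2.4.6 under Python 3.11.15. Identical intervals were counted once, which leaves 642 combined intervals, the list length used for each replicate. Tests of X against II to V were two-sided exact binomial or Fisher's exact tests, adjusted over 5 tests. Functions were tested on simulated lists. The peaks and comparisons were chosen with earlier results of these data known. The rule for named regions took the first 10 combined X peaks, the densest windows and bins, the 2 widest rank gaps each way, the first 3 X peaks per replicate without a combined peak, and extreme widths. Any other position was picked with its values in view. The gene table at hand is of assembly WBcel235, so no gene or sequence was assigned to a peak.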

Additional observations from a re-analysis of the deposited data

How the results depend on the processing

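None of the 6 exact tests passed 0.05, with or without adjustment, and none passed under any of the 38 alternatives after adjustment (the comparison of the outer segments, a single test, was not adjusted). The sign of the difference was kept in 29 of the 38. The lower central share of X kept its sign in all 7 alternatives, between -13.7 and -4.11 percentage points. Both replicates taken singly gave -13.7 and -5.52 points, and before adjustment p was 0.0152 without replicate 1 and 0.0337 against autosomes I to V (Fisher's exact test). The difference in close neighbours grew from -3.25 to -7.17 points at 10 kb and to -7.15 without chromosome V, and that in sharing from -1.85 to -6.53 at 1000 peaks, and none of these passed. Other alternatives changed the sign. The ratio for density was 1.10 and 0.910 without replicate 2 and without replicate 1. The difference in sharing was 0.466 points at 5000 peaks and 7.15 points from replicate 2. The difference in close neighbours was 0.351 points without chromosome III, added after the data were seen. The top-score difference was 1.74 points for the first 100 peaks by number, and 2.04 and 5.44 points in replicates 1 and 2 taken singly. The left share of the outer segments was 51.4% among the 321 highest scoring combined peaks and between 46.9 and 52.9% with 1 replicate left out. The cause was not tested for any of these. No paired analysis was possible because no comparison between ChIP and input was made. The lists hold no read counts, so no limit from read depth can be given.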
